A study of Homo sapiens with 10 samples.

Results

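The IFIT, IFITM and IFI44 genes and IRF7 are interferon-stimulated genes, and 8 of them were followed across a panel of human colorectal carcinoma lines: IFIT1, IFIT2, IFIT3, IFIT5, IFITM1, IFITM3, IFI44 and IRF7. The probe annotation named 1 probe set for each, so the set holds 8 of the 14884 genes named on the array and 8 of its 53617 probe sets. The arrays carried RNA from 5 untreated lines of HCT116, an established colorectal carcinoma line, with 2 arrays each and 10 in all. Both ORC1B14 and ORC1BP32 are labelled as ORC1 mutants, ORC2B2 and ORC2BP8 as ORC2 mutants, and the fifth line is wild type (WT). Every line shares the HCT116 background, and the labels give no allele or kind of mutation and do not say how each line was derived. ORC1 and ORC2 encode subunits of the origin recognition complex, which marks the sites where DNA replication begins. The labels call the 2 arrays of a line biological replicates without saying that they came from separate cultures, so the p-values cover nothing beyond the spread among these arrays, and that spread may be technical. RNA came from whole cultures, so fewer cells expressing a gene and less RNA per cell cannot be told apart.

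Interferons are secreted proteins that bind receptors on neighbouring cells and signal through the JAK kinases to transcription factors. These bind the interferon-stimulated response element in the promoters of their target genes. Cells also switch on part of this programme without secreted interferon, when cytosolic sensors detect RNA or DNA and activate IRF3 and IRF7. IFIT proteins bind viral RNA and block its translation, IFITM proteins sit in membranes and hinder virus entry, and IRF7 is a transcription factor that amplifies interferon production.

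The element that these genes share was looked for in the promoter windows of RefSeq (GRCh38.p14), which run from 250 bases before to 50 bases after an annotated start. Windows were found for 6 of the 8 genes, namely IFIT1, IFIT3, IFIT5, IFITM1, IFITM3 and IFI44. The table held none for IFIT2 or IRF7. The core searched was GAAANNGAAA on both strands, with reverse complement TTTCNNTTTC. It was present in 8 of 8 windows of these genes and in 3.57% of all 35116 windows, and at least 2 matches stood in 6 of the 8 windows and in 0.259% of all. Of 61 windows of other interferon-stimulated genes, 33 held a match. The stretches around the matches are shown because all 6 genes searched held the element, written 5′ to 3′ on the gene's own strand, with every match in capitals and 10 bases on each side.

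IFIT1, chr10:89392497-89392539, plus strand: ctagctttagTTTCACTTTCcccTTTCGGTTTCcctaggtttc
IFIT3, first start, chr10:89327831-89327894, plus strand: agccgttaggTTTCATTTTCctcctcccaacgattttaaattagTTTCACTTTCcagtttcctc
IFIT3, second start, chr10:89332425-89332497, plus strand: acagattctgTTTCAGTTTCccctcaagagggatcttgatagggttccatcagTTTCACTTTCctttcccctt
IFIT5, chr10:89414513-89414583, plus strand: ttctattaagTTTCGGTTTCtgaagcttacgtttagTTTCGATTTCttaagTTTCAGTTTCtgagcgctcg
IFITM1, chr11:313990-314053, plus strand: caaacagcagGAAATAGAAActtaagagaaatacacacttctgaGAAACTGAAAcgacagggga
IFITM3, chr11:320876-320922, minus strand: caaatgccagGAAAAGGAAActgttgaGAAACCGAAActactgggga
IFI44, chr1:78649761-78649790, plus strand: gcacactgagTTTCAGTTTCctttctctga

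In IFIT1 both matches lie 3 bases apart, and in IFIT5 there are 3 matches, the last of them across the annotated start. IFITM1 and IFITM3 carry the core in the other orientation. For IFI44 the same match falls in the windows of 2 annotated starts. A match is a description of the letters, and no measurement here bears on binding of a factor to it.

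The arrays were checked before the genes were compared. Array medians lay between 3.94 and 3.96 on the 5 replicate 1 arrays and between 3.87 and 3.89 on the 5 replicate 2 arrays, without overlap, and no 2 arrays held identical values. Of 10 markers of colorectal epithelium, 8 were named on the array. Of these, 7 (EPCAM, KRT8, KRT18, KRT19, CLDN4, CLDN7 and CDX2) lay above the array median on every array, and LGR5 lay below it on every array. Of 22 markers of blood, stroma, endothelium, liver and kidney lines, 12 were named and 4 (PAX2, PAX8, SPI1 and APOA1) passed the filter. These 4 also lay above the array median on every array. The mutated genes ORC1 and ORC2 were not analysed here, so the line labels were not checked against them.

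Values are log2 expression per probe set, a scale on which 1 unit is a 2-fold change, with the base taken from the range of the values. They were compared between lines, and never between genes, because probe sets differ in brightness. IFIT1 (probe set 16707196, chromosome 10) varied most. It stood at 5.49 and 4.76 in ORC1B14 (replicates 1 and 2), 7.49 and 5.04 in ORC1BP32, 5.45 and 5.01 in ORC2B2 and 4.53 and 4.19 in ORC2BP8, against 3.79 and 4.62 in WT. A single array, ORC1BP32 replicate 1, lay 2.0 above the next highest, and 6 of the 8 mutant arrays lay above both WT arrays. The order of the line means was ORC1BP32, ORC2B2, ORC1B14, ORC2BP8 and WT, and the only neighbours in it whose arrays did not overlap were ORC1B14 and ORC2BP8.

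IFIT2 (probe set 16707180), a family member that binds AU-rich RNA, stood at 4.45 and 4.23 in ORC1B14, 5.24 and 4.56 in ORC1BP32, 4.10 and 4.23 in ORC2B2 and 3.70 and 3.37 in ORC2BP8, against 3.81 and 4.11 in WT. Both ORC1BP32 arrays were above every other array, and both ORC2BP8 arrays were below every other one. IFIT3 (probe set 16707184), which stabilises IFIT1 on RNA, stood at 4.20 and 3.02 in ORC1B14, 4.51 and 3.56 in ORC1BP32, 3.49 and 3.07 in ORC2B2 and 2.87 and 3.04 in ORC2BP8, against 2.76 and 3.33 in WT. It reached the array median on 2 arrays only, replicate 1 of each ORC1 line, and its neighbouring lines overlapped throughout.

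IFIT5 (probe set 16707202), which binds RNA as a single chain rather than in a complex with its relatives, varied little between lines. It stood at 6.62 and 6.96 in ORC1B14, 7.50 and 6.89 in ORC1BP32, 7.08 and 7.0 in ORC2B2 and 6.59 and 7.23 in ORC2BP8, against 6.79 and 7.13 in WT. Its line means spanned 0.41, and every neighbouring pair of lines overlapped. Although the 4 IFIT genes lie close together on chromosome 10, IFIT1, IFIT2 and IFIT3 had line means spanning 2.06, 1.37 and 1.08. The 20 named and tested genes next to them, 10 on each side, had median differences from WT of 0.01 in ORC1BP32, -0.12 in ORC1B14, 0.07 in ORC2BP8 and -0.09 in ORC2B2.

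IFITM1 (probe set 16720085, chromosome 11), which acts at the cell surface, stood at 6.10 and 5.80 in ORC1B14, 7.42 and 6.24 in ORC1BP32, 6.61 and 6.78 in ORC2B2 and 6.27 and 5.69 in ORC2BP8, against 5.96 and 6.26 in WT. Both ORC2B2 arrays and 1 ORC1BP32 array were above the others. IFITM3 (probe set 16733851), which acts in endosomes, stood at 5.78 and 5.71 in ORC1B14, 6.03 and 5.84 in ORC1BP32, 5.62 and 5.88 in ORC2B2 and 5.84 and 5.78 in ORC2BP8, against 5.53 and 5.77 in WT. Its 10 arrays lay within 0.51, the smallest span of the 8 genes. IFITM3 is close in sequence to IFITM2, and how far the probe set separates them is not known here.

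IFI44 (probe set 16666509, chromosome 1), a cytoplasmic protein induced by interferon, stood at 4.52 and 3.60 in ORC1B14, 5.21 and 3.94 in ORC1BP32, 3.78 and 3.0 in ORC2B2 and 3.36 and 3.60 in ORC2BP8, against 2.95 and 3.22 in WT. It reached the array median on 3 arrays, all from ORC1 lines, and 7 of the 8 mutant arrays lay above both WT arrays. IRF7 (probe set 16733995, chromosome 11) stood at 4.96 and 4.70 in ORC1B14, 5.86 and 5.22 in ORC1BP32, 5.19 and 4.94 in ORC2B2 and 5.08 and 5.04 in ORC2BP8, against 4.85 and 5.03 in WT. Both ORC1BP32 arrays were above every other array, while the other 8 lay between 4.70 and 5.19. All 8 genes were tested, but IFIT3 and IFI44 passed the filter on dim probe sets only through ORC1 arrays. A gene that passes in that way is chosen for high ORC1 values.

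**Figure D1:**
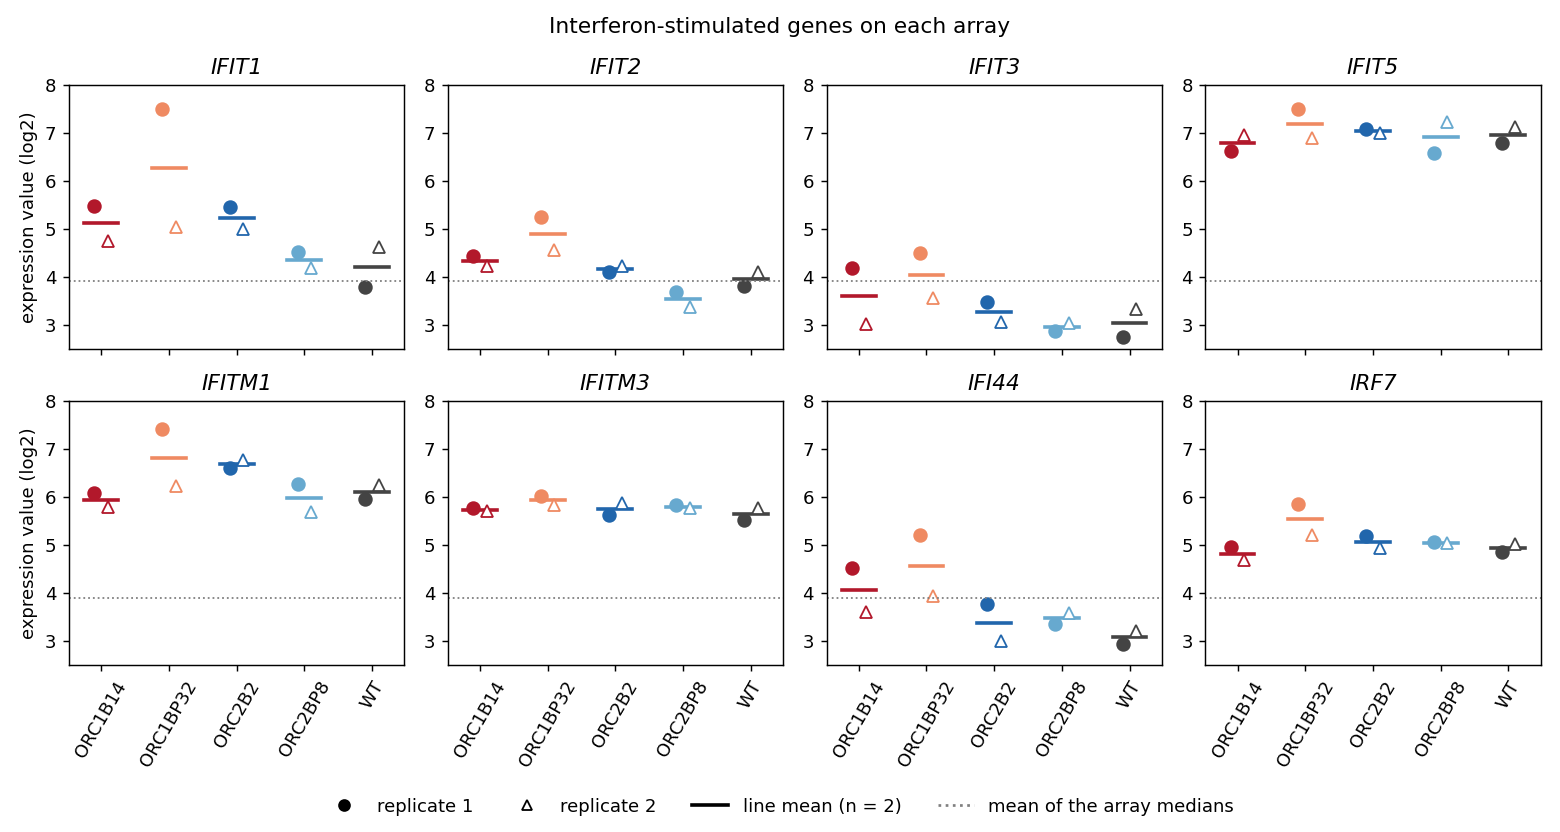
Expression value (log2) of each of the 8 genes on each array, by line, with replicate 1 as filled circles, replicate 2 as open triangles, and the mean of the 2 arrays as a bar. The highest point of every panel is ORC1BP32 replicate 1, which reaches 7.49 for IFIT1, and IFIT3 and IFI44 lie mostly below the dotted mean of the array medians.

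The first question was whether any mutant line differed from WT. By limma, with p-values adjusted over 10797 genes, 0 of the 8 genes passed the threshold of 0.05 in any of 4 lines. Over all genes tested, 0.583% were called in ORC1B14 and 0.0185% in ORC1BP32, and 0.333% in ORC2B2 and 0.935% in ORC2BP8. An unadjusted p under 0.05 was reached by 1 of the 8 in ORC1B14 and by 17% of all genes, and by 5 of the 8 in ORC1BP32 and 10.1% of all genes. Those of the 8 were all higher in the mutant line, while the shares of all genes count both directions. IFI44, which passed the filter only through ORC1 arrays, is the 1 in ORC1B14, and it and IFIT3 are among the 5 in ORC1BP32. It was reached by 0 of the 8 in ORC2B2 and in ORC2BP8, where 11.7% and 14.6% of all genes did. These 4 comparisons share the WT arrays.

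In ORC1BP32 all 8 genes stood above WT, as did 55.3% of all genes, with a median difference of 0.83 against 0.04 over all genes. Of the 8, IFIT3 and IFI44 passed the filter only through ORC1 arrays, which favours high values in this line. IFIT1 averaged 6.26 ± 1.74 in ORC1BP32 and 4.21 ± 0.59 in WT (SD, n = 2 each), a difference of 2.06 or 4.16-fold (SE 0.61, 95% interval 0.70 to 3.41, limma adjusted p = 0.302). IFI44 averaged 4.58 ± 0.90 in ORC1BP32 and 3.09 ± 0.19 in WT, a difference of 1.49 (95% interval 0.57 to 2.40, limma adjusted p = 0.271). IFIT2 averaged 4.90 ± 0.48 in ORC1BP32 and 3.96 ± 0.21 in WT, a difference of 0.94 (95% interval 0.40 to 1.48, limma adjusted p = 0.231). None of these passed the threshold. Without ORC1BP32 replicate 1 the differences of IFIT1, IFI44 and IFIT2 were 0.83, 0.85 and 0.60, and without its replicate 2 they were 3.28, 2.12 and 1.28. Both ORC1BP32 arrays lay above both WT arrays for 6 of the 8 genes, as they did for 23.7% of all genes, and the exceptions were IFIT5 and IFITM1. The 6 include IFIT3 and IFI44, for which the filter favours this.

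In the remaining lines 5 of the 8 genes stood above WT in ORC1B14 (55% of all genes), 8 in ORC2B2 (54%) and 4 in ORC2BP8 (55%). The 5 in ORC1B14 include IFIT3 and IFI44, which passed the filter only through ORC1 arrays. IFI44 stood 0.97 above WT in ORC1B14 (SE 0.41, limma adjusted p = 0.263), 0.30 in ORC2B2 and 0.39 in ORC2BP8. IFIT1 stood 0.91 above WT in ORC1B14, 1.02 in ORC2B2 and 0.15 in ORC2BP8, and these 3 intervals all included 0. IFIT2 differed in sign between lines, at 0.38 in ORC1B14 and 0.21 in ORC2B2 but -0.43 in ORC2BP8 (95% interval -0.97 to 0.11). Intervals for IFITM3 were the narrowest, and in ORC1B14 they ran from -0.33 to 0.52. Those for IFIT1 were the widest, and in ORC2BP8 they ran from -1.20 to 1.51, which includes a 2-fold difference in either direction.

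**Figure D2:**
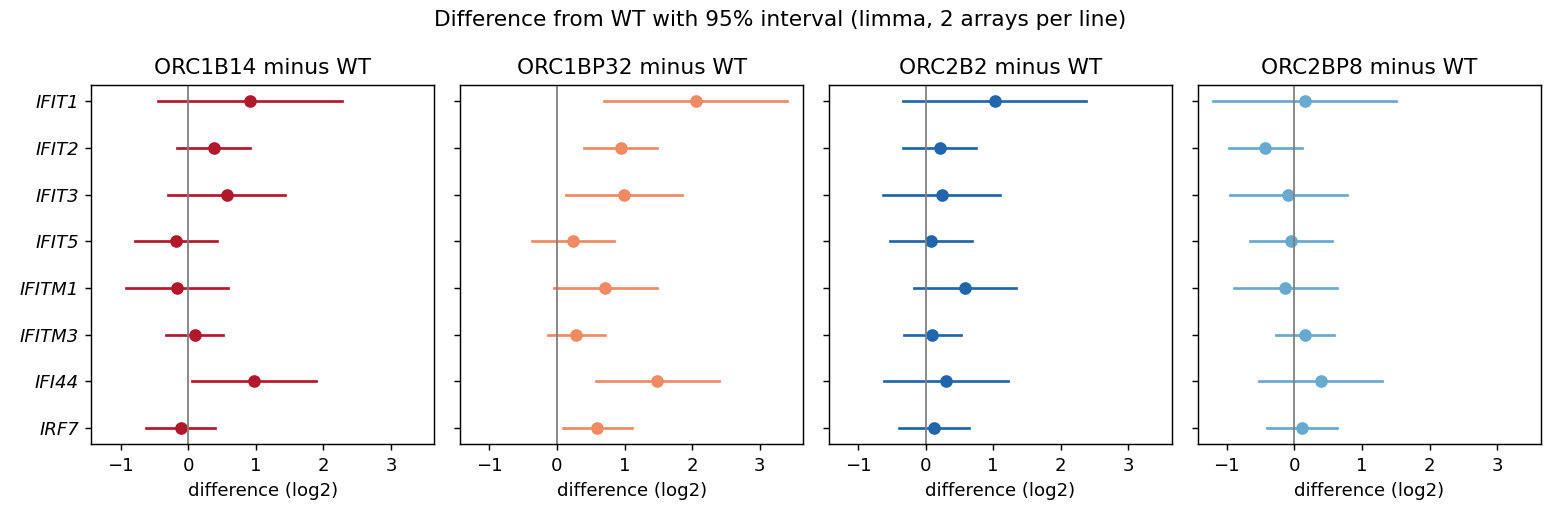
Difference from WT (log2) of each gene in each mutant line, with points for the limma estimate and lines for its 95% interval. In ORC1BP32 the intervals of IFIT1, IFIT2, IFIT3, IFI44 and IRF7 lie above 0, and in ORC2B2 and ORC2BP8 every interval includes 0.

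Lines were then averaged by mutated gene, with errors from the spread between the 2 arrays of a line and not from that between lines. In the mean of both ORC1 lines, 0 of the 8 genes were called by limma (0.269% of all genes were) and 4 reached an unadjusted p under 0.05, as 16.3% of all genes did. All 8 stood above WT, with 55.5% of all genes. IFIT3 and IFI44, which passed the filter only through ORC1 arrays, are again among the 4 and are 2 of the 8. IFIT1 stood 1.49 above WT (SE 0.53), IFI44 1.23 (SE 0.36), IFIT3 0.78 (SE 0.34) and IFIT2 0.66 (SE 0.21), with limma adjusted p = 0.206, 0.142, 0.287 and 0.168. With the replicate number as a block, a fit described below, IFI44 passed the threshold (limma adjusted p = 0.0460), as did 4.20% of all genes. That call is of a gene which the filter chose for high ORC1 values. In the mean of both ORC2 lines, 0 were called by limma (1.07% of all genes) and 0 reached an unadjusted p under 0.05, where 15.2% of all genes did. There 7 stood above WT, with 55.1% of all genes, at differences between -0.11 for IFIT2 and 0.59 for IFIT1. In the mean of the 4 mutant lines, 0 were called by limma (1.02% of all genes), and all 8 stood above WT, with 55.4% of all genes. There 1 reached an unadjusted p under 0.05, as 17.3% of all genes did, IFI44 at 0.79 (SE 0.33, limma adjusted p = 0.251). Without ORC1BP32 replicate 2, IFIT1 stood at 2.10 in the mean of both ORC1 lines and passed the threshold (limma adjusted p = 0.0451), and without ORC1BP32 replicate 1 it stood at 0.87.

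Differences among the mutant lines hold no WT value, although their errors come from the spread between the 2 arrays of a line, over all 5 lines. Between the mean of both ORC1 lines and that of both ORC2 lines, 0 of the 8 genes were called by limma (0.0463% of all genes were) and 3 reached an unadjusted p under 0.05, as 6.96% of all genes did. All 8 stood higher in the ORC1 lines, with 50.5% of all genes. IFIT2 averaged 4.62 in the ORC1 lines and 3.85 in the ORC2 lines, a difference of 0.77 (SE 0.17, 95% interval 0.39 to 1.15, limma adjusted p = 0.208). It held place 52 of 10797 by p-value. For IFIT2, ORC1B14 minus ORC1BP32 was -0.57 and ORC2B2 minus ORC2BP8 was 0.64, and the interval leaves out such spread between lines. IFI44 differed by 0.88 and IFIT3 by 0.71 in the same direction. Both passed the filter only through ORC1 arrays, so the count of 3 and that of all 8 each hold 2 genes chosen for high ORC1 values. Without any single array the difference of IFIT2 stayed between 0.60 and 0.94. That of IFIT1 ran from 0.28 without ORC1BP32 replicate 1 to 1.51 without its replicate 2. Without ORC1BP32 replicate 1 only 7 of the 8 genes were tested, and 4 of these 7 stood higher in the ORC1 lines. IFITM1 and IRF7 then stood lower there, at -0.24 and -0.04.

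Within the ORC1 lines, ORC1B14 stood above ORC1BP32 for 0 of the 8 genes and 49.9% of all genes. Again 0 were called by limma (0.0185% of all genes), and 3 reached an unadjusted p under 0.05, as 5.32% of all genes did. IRF7 averaged 4.83 ± 0.18 in ORC1B14 and 5.54 ± 0.45 in ORC1BP32, a difference of -0.71 (95% interval -1.22 to -0.20, limma adjusted p = 0.752). IFITM1 differed by -0.88 and IFIT2 by -0.57. Between ORC2B2 and ORC2BP8, 0 were called by limma (0.222% of all genes), and ORC2B2 was higher for 6 of the 8 and 47.9% of all genes. There 1 reached an unadjusted p under 0.05, as 5.46% of all genes did, IFIT2 at 0.64 (limma adjusted p = 0.750).

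A single array stood apart for these genes. For all 8 genes the highest of the 10 arrays was ORC1BP32 replicate 1, which was the highest array for 8.81% of all genes tested. IFIT3 and IFI44 passed the filter only through ORC1 arrays, this array among them. This count and those of the gaps are therefore partly set by the filter. In ORC1BP32 replicate 2 was lower for all 8 genes, while replicate 1 was the higher array of that line for 45% of all genes. The gap between them was 2.45 for IFIT1, 1.27 for IFI44 and 1.17 for IFITM1, and these 3 passed 1 unit, as 0.639% of all genes did. IFIT1 had place 4 from the highest gap among 11554 probe sets, IFI44 place 26 and IFITM1 place 37. IFIT3 (0.95), IFIT2 (0.68), IRF7 (0.64) and IFIT5 (0.61) also had replicate 1 higher, and IFITM3 had the smallest gap (0.19). Over all probe sets that passed the filter the ORC1BP32 pair was no wider than the others, with an SD of the gap of 0.36 against 0.36 to 0.42 in the 4 other lines.

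The gaps differed between lines. In ORC1B14 replicate 1 was higher for 7 of the 8 genes, where 43.8% of all genes were, with IFIT3 at 1.17, above its gap in ORC1BP32, and IFI44 at 0.92. IFIT3 passed the filter only on replicate 1 of the ORC1 lines, and IFI44 there and on ORC1BP32 replicate 2, which favours such gaps. In ORC2B2 and in ORC2BP8 replicate 1 was higher for 5 of the 8, where 44.7% and 46.4% of all genes were. In WT replicate 1 was higher for 0 of the 8, where 41.5% of all genes were, with IFIT1 at -0.83 and IFIT3 at -0.57.

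**Figure D3:**
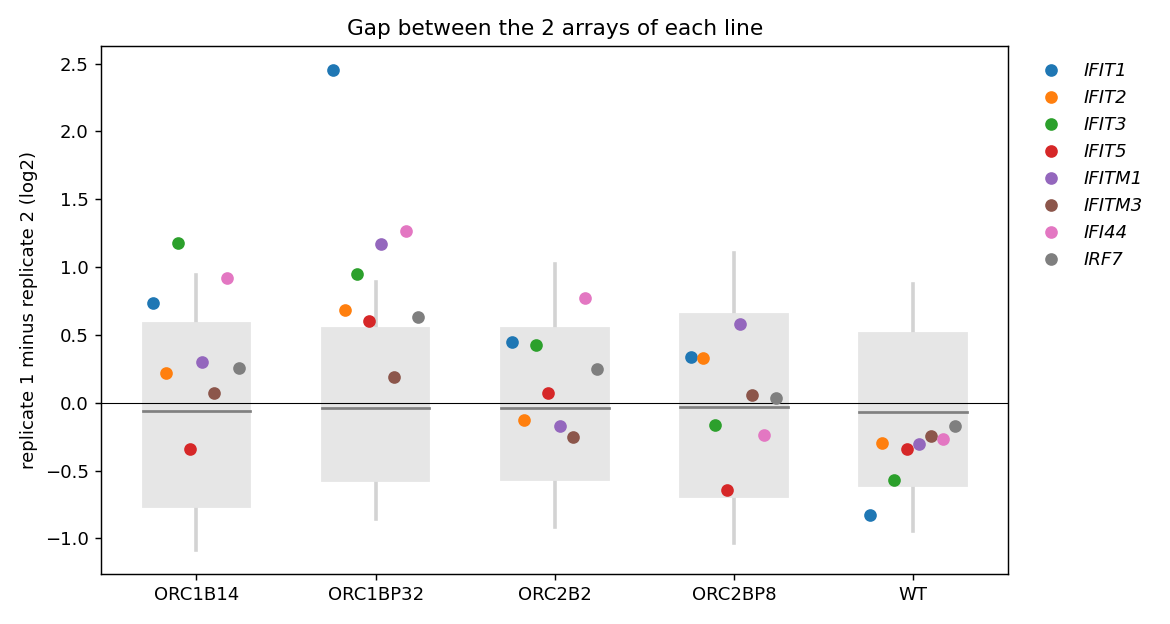
Replicate 1 minus replicate 2 (log2) of the 8 genes in each line, over grey boxes that hold the 5th to 95th percentile of all genes tested, grey lines for the 1st to 99th, and a bar at the median. In ORC1BP32 all 8 points lie above 0, up to 2.45 for IFIT1, and in WT all 8 lie below 0, down to -0.83 for IFIT1.

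The difference from WT was also read within each replicate number. Within replicate 1, all 8 genes stood above WT in ORC1BP32 and in ORC2B2, 7 in ORC1B14 and 6 in ORC2BP8, where 54.9%, 53.9%, 53.2% and 54.5% of all genes did. Their medians were 1.44 in ORC1BP32, 0.49 in ORC2B2, 0.44 in ORC1B14 and 0.26 in ORC2BP8. Within replicate 2, 6 genes stood above WT in ORC1BP32, 4 in ORC2B2, 3 in ORC1B14 and 4 in ORC2BP8, where 52.6%, 52.3%, 54.8% and 53% of all genes did. There the medians were 0.21, 0.01, -0.12 and -0.14. IFIT1 in ORC1BP32 stood 3.70 above WT within replicate 1 and 0.42 within replicate 2. IFI44 was above WT in ORC1BP32 by 2.25 and 0.72, and in ORC1B14 by 1.57 and 0.38. IFI44 and IFIT3 passed the filter only through ORC1 arrays, which favours higher values in those lines.

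Other genes of the pathway, taken from lists made for this comparison, were read on the same arrays. None of 10 interferon ligands was named on the array. Of 6 receptor genes 2 were tested, and the interferon gamma receptor genes IFNGR1 and IFNGR2 stood at -0.23 and 0.06 in the mean of the 4 mutant lines. Of 14 genes of JAK-STAT signalling and IRF factors 10 were tested and 0 were called in any comparison, with the largest differences for JAK1 (-0.36), TYK2 (0.29) and IRF3 (0.23). JAK1, a kinase that the interferon receptors share, stood at -0.97 in ORC1BP32 (SE 0.19, limma adjusted p = 0.141). Of 12 sensors and adaptors 10 were tested and 0 were called, with MYD88 at 0.51, STING1 at 0.39 and TLR3 at 0.23. In ORC1BP32, 8 of these 10 stood above WT (median 0.24), where 55.3% of all genes did. Of 8 inhibitors 4 were tested and 0 were called, with SOCS1 at 0.32, USP18 at 0.30 and CISH at 0.22.

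Of 58 other interferon-stimulated genes 37 were named and 26 tested. In the mean of the 4 mutant lines 0 of them were called higher and 2 were called lower, DDX60L and TRIM25, where 1.02% of all genes were called. There 17 of the 26 stood above WT, as did 55.4% of all genes. DDX60L, a relative of the antiviral helicase DDX60, stood at 6.96 and 7.82 in ORC1B14, 7.60 and 7.95 in ORC1BP32, 8.08 and 8.04 in ORC2B2 and 7.73 and 7.08 in ORC2BP8, against 8.99 and 9.07 in WT. All 8 mutant arrays lay below both WT arrays. It fell by 1.37 (SE 0.23, limma adjusted p = 0.0276), a call lost without either WT array, ORC1BP32 replicate 1 or ORC2B2 replicate 2 (highest adjusted p 0.217). TRIM25, a ubiquitin ligase that activates the RNA sensor RIG-I, fell by 0.65 (SE 0.13, limma adjusted p = 0.0489), and kept its call only without ORC2BP8 replicate 1 (highest adjusted p 0.349 without another array). Taken by line, DDX60L fell in ORC1B14 by 1.64 and in ORC2BP8 by 1.62 (limma adjusted p = 0.0446 and 0.0322), calls lost without 7 of the 10 arrays, either WT array among them. ISG15, a ubiquitin-like modifier, stood at 0.94 (limma adjusted p = 0.172) and TRIM21 at 0.66 (limma adjusted p = 0.159).

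The array that was highest for the 8 genes was also highest for 14 of these 26 genes, and for 8.81% of all genes tested. In ORC1BP32 the 26 genes had a median gap of replicate 1 over replicate 2 of 0.48, against -0.04 over all genes. The gap was above 0 for 24 of the 26 and for 45% of all genes. The gap was 1.47 for SAMD9, 1.35 for ISG15, 1.26 for DTX3L and 1.12 for OASL, all chosen here after their values were seen. Against WT, ORC1BP32 had 20 of the 26 above 0 (median 0.23), where 55.3% of all genes were. ORC1B14 had 14 (0.06), ORC2B2 15 (0.05) and ORC2BP8 12 (-0.05), where 55%, 54% and 55% of all genes were. The 4 tested markers of other cells had a median gap in ORC1BP32 of -0.26, with SPI1 at 0.44, and their part in these values was not tested.

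**Figure D4:**
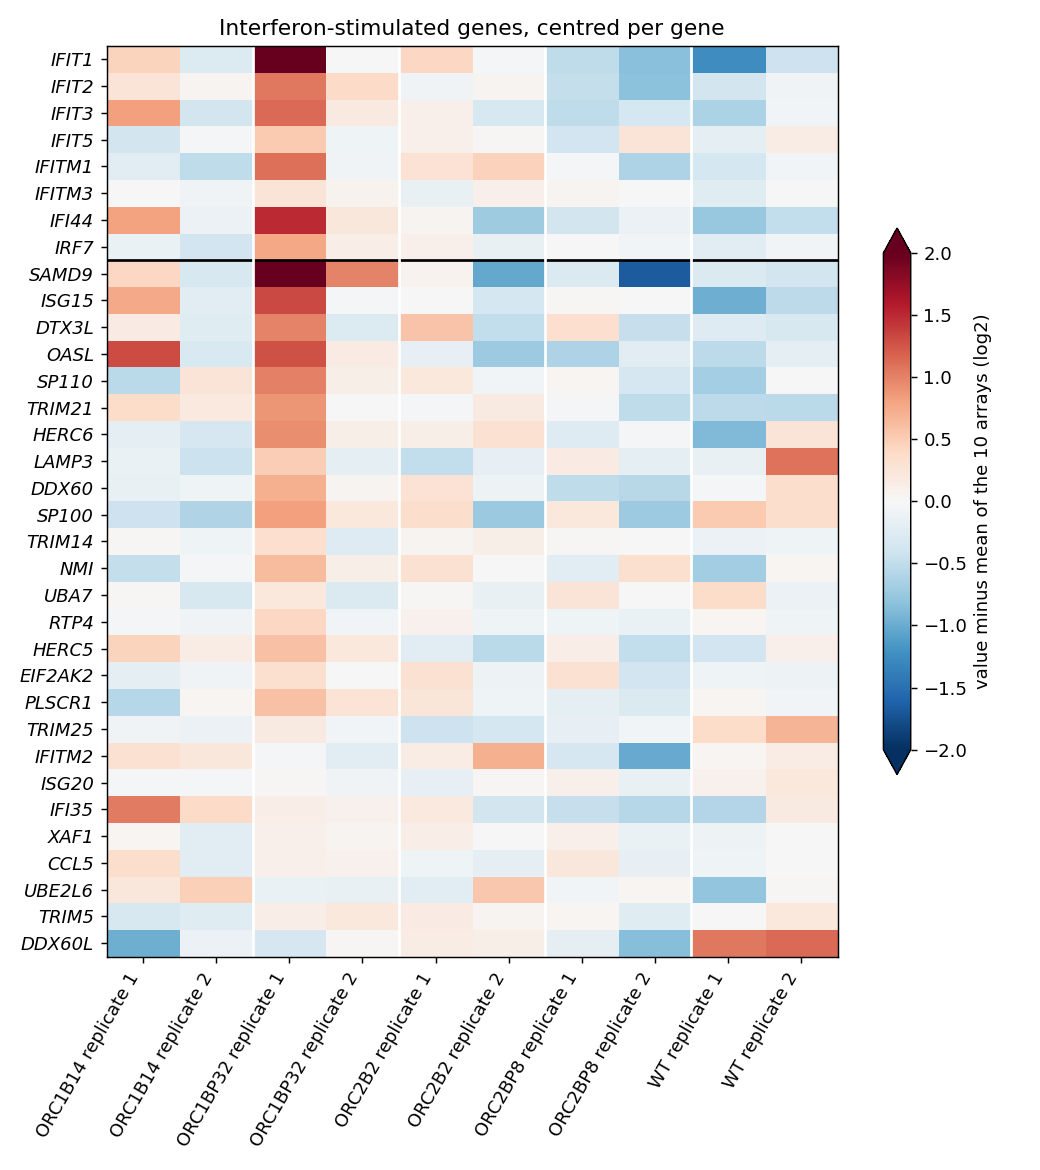
Value of each gene minus its own mean over the 10 arrays (log2), for the 8 genes above the black line and the 26 other interferon-stimulated genes below it, ordered by the gap between the ORC1BP32 arrays. The column of ORC1BP32 replicate 1 is the highest for all 8 genes and for 14 of the 26 (8.81% of all genes tested), and DDX60L in the last row is highest in WT.

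Patterns most like those of the 8 genes were named by the root mean square difference between centred values over the 10 arrays. Nearest to IFI44 were ISG15 (0.21) and OASL (0.25), and nearest to IFIT3 were OASL (0.24) and LCP1 (0.25). IFIT1 was nearest to IFI44 (0.50) and SNAR-H (0.52), against 0.96 for its own deviation from its mean. IFITM1 was nearest to SHFL (0.28) and GPR162 (0.29), IFIT2 to LOC440895 (0.20) and MILR1 (0.23), and IRF7 to SNAI2 (0.10) and PRR15 (0.12). IFIT5 and IFITM3 varied too little between lines to be matched. The neighbours of IFITM1, IFITM3 and IRF7 on chromosome 11 were 14 genes, 4 on one side and 10 on the other. Their medians against WT lay between 0.08 and 0.19 in the 4 lines. The 13 named and tested genes that lie between these members were left out of the medians. The 20 neighbours of IFI44 had medians between -0.31 and -0.08.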

How the data were processed

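The table that the authors deposited holds log2 values for 53617 probe sets on 10 arrays, made with Affymetrix Expression Console, per the submitters' processing notes. For its version, the normalization and the build, nothing is given in the sources used here. Per the labels' protocols, total RNA was extracted with Trizol. Values were read as log2 from their range (1.45 to 13.71) and used without further scaling. Arrays give no read depth, and their number limits the precision.

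Exactly 1 symbol was found for 16098 probe sets, all matched to the RefSeq gene table (GRCh38.p14), and 37519 were unnamed here. A probe set was kept when it reached the array median on at least 2 arrays, and the brightest stood for its gene, which left 10797 genes. They were fitted in R 4.3.3 with limma 3.58.1, as 5 line means with an intensity trend, and p-values were Benjamini-Hochberg adjusted, two-sided, with a threshold of 0.05. The fit was tested on simulated data. The 8 genes, the pathway lists and the tests were chosen with earlier results of these data known. Named beside the 8 genes are, per list, those called in any comparison and the 3 with the largest difference in the mean of the 4 mutant lines.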

Additional observations from a re-analysis of the deposited data

Results flagged for a closer look

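IFIT2 stood on opposite sides of WT, on both arrays, in 2 pairs of lines. None of its differences from WT passed the threshold, with limma adjusted p = 0.231 in ORC1BP32, 0.456 in ORC1B14 and 0.457 in ORC2BP8. Against the WT array of the same replicate number, ORC1BP32 stood at 1.43 and 0.45 and ORC2BP8 at -0.11 and -0.74, so the means differed by 1.37. ORC1B14 stood at 0.63 and 0.12 and ORC2BP8 at -0.11 and -0.74, so the means differed by 0.81. Neither of these line pairs was tested directly, and both share the WT arrays. The mean of both ORC1 lines against that of both ORC2 lines, which was tested, did not pass the threshold (0.77, limma adjusted p = 0.208). Among the 4 arrays of each mutated gene, 0 of 16 checks found an array beyond Dixon's 95% critical value. Chance gives about 1 in 20.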

How the results depend on the processing

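With the replicate number as a block, 1 of the 8 genes was called when both ORC1 lines were averaged, IFI44 at 1.23 (limma adjusted p = 0.0460), where 454 of all genes were called in place of 29. IFI44 passed the filter on dim probe sets only through ORC1 arrays, so the called gene was chosen for high ORC1 values. The block was not part of the reported fit, since the labels give no shared batch. Replicate 1 deviations from the line means correlated over 0.1 in 9 of 10 line pairs (0.0812 to 0.568), and the array medians split by replicate number; what same-numbered arrays share was not tested. Leaving out each of the 10 arrays gave 0 to 1 called in that comparison, the 1 being IFIT1 without ORC1BP32 replicate 2. Without ORC1B14 replicate 1 or ORC1BP32 replicate 1 only 7 of the 8 were tested, since IFIT3 fell out. The count was 0 in the other 9 comparisons under each of the 17 alternatives, and in all 10 under quantile normalization, median centring, no filter, a stricter filter (9420 genes), the mean over probe sets and no intensity trend. The stricter filter left only 4 of the 8 genes to test. IFIT1 in ORC1BP32 ranged from 0.83 without replicate 1 of that line to 3.28 without replicate 2. Without ORC1BP32 replicate 1, 9 of 70 differences changed sign, and without WT replicate 1, 9 of 80, none of them called.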

Other observations

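In ORC1BP32 the 10 tested sensors and adaptors had a median gap of replicate 1 over replicate 2 of 0.43, and the 4 tested inhibitors of interferon signalling one of 0.53. The gaps ranged widely within both lists. Replicate 1 was higher by 1.36 for the RNA sensor IFIH1, by 0.96 for the RNA sensor RIGI and by 1.05 for USP18, a protease that removes ISG15, but by only 0.25 for the RNA sensor DHX58 and 0.32 for TLR3. The gap was -0.27 for the kinase TBK1 and -0.50 for the inhibitor CISH. Against WT, ORC1BP32 stood at 1.04 for RIGI and 0.96 for IFIH1 (limma adjusted p = 0.405 and 0.515), but at -0.13 for DHX58. These genes were chosen after their values were seen.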
